A study of Saccharomyces cerevisiae with 32 samples.

Results

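The genes named ATG make up the core autophagy machinery of budding yeast. Members were taken by symbol, as every gene named ATG followed by digits, without use of any measured value. This gave 37 genes on 13 chromosomes, of which 36 (all but ATG44) had a probe on the gene array and 36 (all but ATG18) had a region bordering their 5′ end on the intergenic array. The regions number 39, because ATG1, ATG19 and ATG40 have 2 each, and 38 of them were tested among 6392 regions in all. The second region of ATG40 had too few values to be tested. Each gene with 2 regions is given as region 1 and region 2, and the numbers say nothing about which lies nearer the gene.

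Autophagy delivers cytoplasm and organelles to the vacuole inside a double membrane, the autophagosome. In rich medium the kinase TORC1 holds the pathway low, and a constitutive branch, the cytoplasm-to-vacuole targeting (Cvt) pathway, uses much of the same machinery to carry hydrolases to the vacuole. Starvation is the best known inducer, and ATG8 and several other ATG genes are also controlled at transcription. Each of the 5 factors followed here acts at RNA polymerase II promoters. TBP is the TATA-binding protein, TAF1 is a subunit of TFIID, Spt3 is a subunit of SAGA, Mot1 uses ATP to strip TBP from DNA, and Bdf1 carries bromodomains, with which it reads acetylated histones, and associates with TFIID.

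All cultures grew in YPD, a rich medium, at 25 °C to an OD600 near 0.8 and were then held for 15 min at 37 °C (heat shock) or 25 °C (mock). For chromatin immunoprecipitation (ChIP), strains labelled HA-TBP, HA-TAF1, HA-Spt3, HA-Mot1 and HA-Bdf1 and a strain labelled Null were crosslinked for 2 h in 1% formaldehyde after return to 25 °C, and heat-shocked DNA was hybridised against mock DNA of the same strain on 4 arrays per strain. Another 4 arrays set input DNA of the TAF1 strain against that of the Spt3 strain. RNA came from the strain labelled Null (BY4741), with 2 arrays of heat shock against mock, with the channels exchanged between them, and 2 of mock against mock. Nothing in the labels says whether the replicates were separate cultures, so p-values measure only the spread between these arrays, which may be technical.

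Arrays held between 6644 and 6953 values, and the number of arrays limits the precision. Each value below is a log2 ratio of heat over mock, relative to the median of its array, except on the RNA mock arrays. Those are channel 2 over channel 1, a sign that matches heat array B and is reversed for heat array A. Values of single arrays keep the channel effect, the part of a ratio that stays with the channel, which the fits remove. Overlaps between single arrays are therefore stated with that effect left in, unless said otherwise. The labels do not say which channel is the numerator. RNA ratios were read so that 7 of 7 heat shock chaperone genes rose, by 1.47 to 6.76 on the log2 scale. ChIP ratios were read so that occupancy tracked RNA. Over 2621 regions that bordered no ATG gene and lay 5′ of a single gene, the deposited value had a Spearman correlation with that gene's RNA change between 0.13 and 0.40 on all 8 TBP, TAF1, Mot1 and Bdf1 arrays with heat-shocked DNA in channel 1. It lay between -0.49 and -0.28 on all 8 with the channels exchanged. Spt3 followed the same signs weakly, at 0.07 and 0.0076 with heat in channel 1 and -0.13 and -0.06 in channel 2. Null ran the other way, at -0.06 and -0.20 in channel 1 and 0.04 and 0.14 in channel 2. The ChIP direction is therefore likely, not stated, and the other reading would turn the sign of every ChIP value. The most variable ChIP arrays were Null A and Null B, with residual median absolute deviations of 0.36 and 0.31 against 0.09 to 0.28 on the other 26.

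RNA of 18 of the 36 measured ATG genes rose after heat shock. These 18 were higher and 0 were lower in limma's fit (adjusted p under 0.05), where 18.2% of all 6772 probes were higher and 18.9% lower. Without adjustment, at p under 0.05, 21 were higher and 0 lower. The median ATG change was 0.58, against 0.01 over all probes, and the range ran from -0.35 for ATG27 to 2.02 for ATG42. Both heat arrays were above 0 for 28 genes and both below 0 for 4. In 7 genes the fitted rise was at least 2-fold. The count rests on few arrays: it was 6 without heat array A and 6 without heat array B, and 4 after the arrays were scaled to equal spread. ATG10, ATG34, ATG36 and ATG42 were called under all 3 of these settings.

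**Figure D1:**
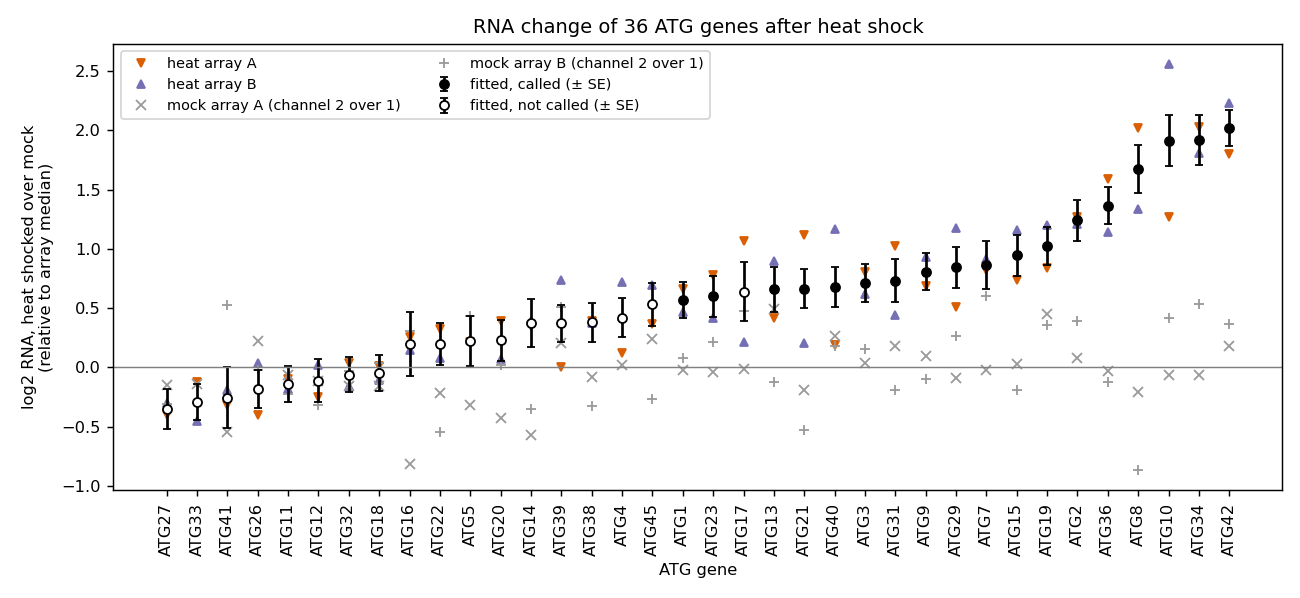
Log2 RNA change after heat shock (vertical axis, relative to the array median) for each of the 36 ATG genes with a probe, in order of the fitted value (circles, with SE; filled where adjusted p is under 0.05). Triangles are the 2 heat arrays, and crosses and plus signs are the 2 mock arrays, drawn as channel 2 over channel 1. Filled circles run from 0.57 for ATG1 to 2.02 for ATG42.

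Among the genes of vacuolar breakdown and efflux, 2 of 3 rose. ATG42 (YBR139W), which encodes a vacuolar serine carboxypeptidase, read 1.80 and 2.23 on heat arrays A and B, against 0.18 and 0.36 on the mock arrays. Both heat values lay far above both mock values, taken with either sign. The fitted change was 2.02 ± 0.15 (SE, n = 2 heat arrays), a 4.05-fold rise with a limma adjusted p of 0.000173. ATG15 (YCR068W), the lipase that opens autophagic bodies in the vacuole, read 0.74 and 1.16 under heat and 0.03 and -0.19 in mock. Its fitted change was 0.95 ± 0.17 (limma adjusted p = 0.00578). With arrays scaled to equal spread, ATG15 was at 0.60 and not called (limma adjusted p = 0.143). ATG22, a vacuolar amino acid exporter, had a fitted value of 0.20 ± 0.18, which was not called.

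Of the 10 measured genes for cargo receptors and selective autophagy, 4 rose: ATG34, ATG36, ATG19 and ATG40. ATG34 (YOL083W), a receptor that carries α-mannosidase to the vacuole, read 2.03 and 1.80 under heat against -0.07 and 0.53 in mock. The fitted change was 1.92 ± 0.21, or 3.77-fold (limma adjusted p = 0.000644). ATG19 (YOL082W), the receptor of the Cvt pathway, is the next gene downstream of ATG34 on the same strand. It read 0.84 and 1.20 under heat and 0.45 and 0.36 in mock, with a fitted change of 1.02 ± 0.16 (limma adjusted p = 0.00306). With arrays scaled to equal spread, ATG19 was at 0.65 and not called (limma adjusted p = 0.189). Both mock values of ATG19 were above 0 as channel 2 over channel 1, and its fitted channel effect was 0.29. That effect enters heat arrays A and B with opposite signs. ATG36 (YJL185C), the receptor for peroxisomes, read 1.59 and 1.14 under heat against -0.03 and -0.13 in mock, a fitted 1.36 ± 0.15 (limma adjusted p = 0.000717). The mitophagy genes ATG32, the outer membrane receptor, and ATG33 had fitted values of -0.06 ± 0.15 and -0.29 ± 0.15, neither called. ATG40 (an ER-phagy receptor) was called at 0.68 ± 0.16, with heat arrays at 0.19 and 1.16 and mock arrays at 0.26 and 0.18. Its fitted channel effect was 0.36, which enters the 2 heat arrays with opposite signs and widens the gap between them.

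The 8 genes of the ubiquitin-like conjugation systems held 4 that rose. ATG8 (YBL078C), the ubiquitin-like protein that is attached to phosphatidylethanolamine on the growing membrane, read 2.02 and 1.33 under heat and -0.21 and -0.87 in mock. Its fitted change was 1.68 ± 0.20, or 3.20-fold (limma adjusted p = 0.000968). With arrays scaled to equal spread, ATG8 was at 1.06 and not called (limma adjusted p = 0.0629). ATG10 (YLL042C), the E2-like enzyme for Atg12, read 1.27 and 2.56 under heat and -0.07 and 0.41 in mock. The heat arrays differed by more than 1 log2 unit but both lay above both mock values, taken with either sign. The fit gave 1.91 ± 0.22 (limma adjusted p = 0.000734). ATG7, the shared E1-like enzyme, and ATG3, the E2-like enzyme for Atg8, were also called, at 0.86 ± 0.20 and 0.71 ± 0.16. The protease gene ATG4 was not called at 0.42 ± 0.17. The other 3 genes, ATG5, ATG12 and ATG16, encode the parts of the complex that promotes Atg8 lipidation, and none was called, with values from -0.11 (ATG12) to 0.22 (ATG5).

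Of the 7 genes for Atg9 vesicles, lipid transfer and phosphoinositide binding, 4 rose. ATG2 (YNL242W), which encodes a lipid transfer protein of the growing membrane, read 1.27 and 1.21 under heat against 0.08 and 0.39 in mock. Its fitted change was 1.24 ± 0.17, a 2.36-fold rise (limma adjusted p = 0.00190), and the heat arrays differed by less than the mock arrays. With arrays scaled to equal spread, ATG2 was at 0.78 and not called (limma adjusted p = 0.0802). The others that rose were ATG9, the membrane protein of the vesicles that seed the autophagosome, at 0.81, ATG21 at 0.66 and ATG23 at 0.60. ATG18, the partner of Atg2, was at -0.05 ± 0.15, and ATG27, which acts with Atg23 in Atg9 traffic, was the lowest member at -0.35 ± 0.17. Neither was called.

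Of 6 genes for the Atg1 kinase complex and its scaffolds, 4 rose, between 0.57 for the kinase gene ATG1 and 0.84 for ATG29, whose product forms a scaffold with Atg17 and Atg31. ATG17 was fitted at 0.64 ± 0.25 and was not called, with heat arrays at 1.06 and 0.21. ATG11, the scaffold for selective autophagy, had both heat arrays below 0 and a fitted value of -0.14 ± 0.15. The 2 genes for subunits of phosphatidylinositol 3-kinase complex I, ATG14 and ATG38, were at 0.37 and 0.38, and neither was called.

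RNA of other genes in the pathway was read from 4 lists, against the 18.2% of all probes that were higher and 18.9% that were lower. All 8 measured genes for Cvt cargo and vacuolar hydrolases rose, with a median of 1.58. The highest was APE1, the aminopeptidase that is the main Cvt cargo, at 3.14 ± 0.16 (limma adjusted p = 5.79e-05), and the lowest was APE3, an aminopeptidase of the vacuole, at 1.10 ± 0.20 (limma adjusted p = 0.00529). Of 12 genes for phosphatidylinositol 3-kinase and membrane partners, 3 rose and 0 fell. They ran from VPS34, the kinase itself, at 0.47 to CCZ1, part of an activator of the vacuolar Rab protein, at 0.89. Of 11 measured genes of TORC1 and nutrient signalling, 1 rose, TPK2, a catalytic subunit of protein kinase A, at 1.16 ± 0.16, and 2 fell: TOR1, a TORC1 kinase, fell by 0.50 and TPK3, another such subunit, fell by 0.60. Of 10 measured transcriptional regulators of ATG genes, 1 rose, the GATA factor GAT1, at 0.70 ± 0.16, and 0 fell. The hydrolase list was the 1 list of the 4 in which every measured member was called, and the shares that rose in the other lists lay near or below that of all probes.

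At the promoters, TBP, TAF1 and Bdf1 were called higher at more ATG regions than at regions in general. Of 38 regions, TBP was higher at 9 (8.35% of all regions), TAF1 at 11 (12.2% of all) and Bdf1 at 11 (8.42% of all). In percent of the ATG regions these are 23.7, 28.9 and 28.9. Mot1 was higher at 4 (8.57% of all) and Spt3 at 1 (3.88% of all), shares of 10.5% and 2.63% that lie near the background. Regions bordering the 5′ end of any other gene (n = 3912) were higher in 12.2% for TBP, 17.1% for TAF1, 11.2% for Bdf1, 10.8% for Mot1 and 5.29% for Spt3. The median change over the ATG regions was 0.20 for Bdf1, 0.19 for TAF1, 0.15 for TBP, 0.11 for Mot1 and 0.05 for Spt3, against -0.02 to 0.01 over all regions. Whether these shares differ was not tested.

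No ATG region was called lower for any factor in limma's fit, where the share of all regions called lower was 8.67% for TAF1, 7.81% for Bdf1, 4.18% for Mot1, 4.01% for TBP and 1.77% for Spt3. At unadjusted p under 0.05, TAF1 was lower at 1 ATG region, Spt3 at 2, and TBP, Mot1 and Bdf1 at 0. In the Null strain 0 of 38 were called in either direction (0.0313% of all regions), with 0 higher and 7 lower at unadjusted p under 0.05. By adjusted p, the 0 Null calls became 5 lower without array C and 4 lower without array D. Input arrays gave 0 calls (0.0156% of all regions) and 0 at unadjusted p under 0.05. The numbers of calls moved with single arrays. TBP fell to 5 without array A and to 2 without B or without D, TAF1 to 4 without A or without B and 6 without D, and Bdf1 to 6 without A, 3 without C and 7 without D. The single Spt3 call was lost without B, C or E, and Mot1 had 4 or 5 whichever of its arrays was left out. All these counts also rest on centring, since the array medians as deposited ran from -1.76 to 1.77: without it TBP, TAF1, Spt3 and Bdf1 had 0 calls and Mot1 had 33 lower.

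**Figure D2:**
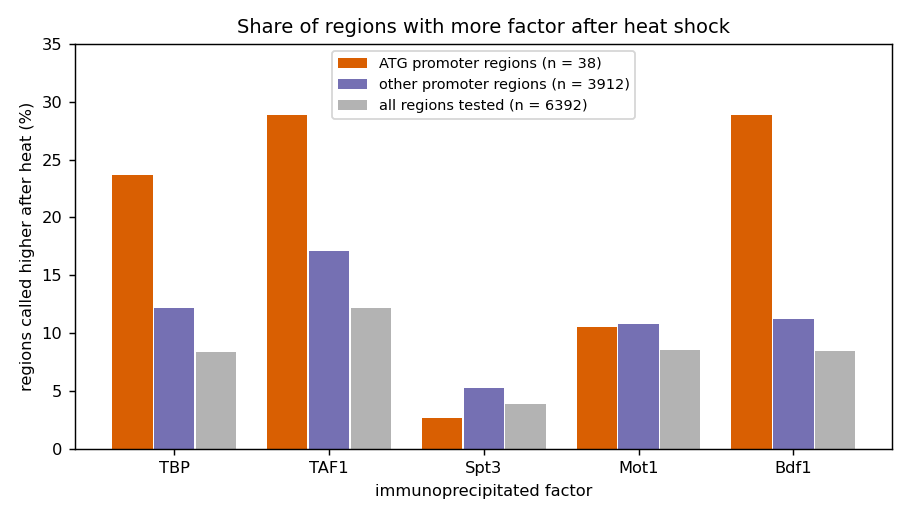
Percent of regions called higher after heat shock (vertical axis, limma adjusted p under 0.05) for each immunoprecipitated factor, in the 38 ATG promoter regions, 3912 other promoter regions and all 6392 regions tested. The ATG bars stand at 23.7, 28.9 and 28.9% for TBP, TAF1 and Bdf1 and at 2.63 and 10.5% for Spt3 and Mot1.

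At least 1 factor was called higher at 20 of the 38 regions, or 52.6%, against 22.3% of all regions. TBP, TAF1 and Bdf1 were called together at 3 (ATG1 region 1, ATG2 and ATG9), which is 7.89% of ATG regions and 3.83% of all. Bdf1 was the one factor called at ATG20, ATG23, ATG26 and ATG32 (10.5% of ATG regions, 2.17% of all). TBP was the one called at ATG4 and ATG21 (5.26% and 0.767%), and TAF1 at ATG12 and ATG44, the gene for a mitochondrial fission factor (5.26% and 3.27%). Several of these rest on the threshold. TAF1 had limma adjusted p of 0.0601 at ATG20, 0.0618 at ATG4 and 0.0613 at ATG21, and TBP 0.0806 at ATG12. The Bdf1 calls at ATG20 and ATG26 were lost whichever Bdf1 array was left out. The same held for TAF1 at ATG2 and ATG12 and for TBP at ATG21, whichever array of that factor was left out. TAF1 at ATG44 was lost without TAF1 array A, TBP at ATG4 without TBP array A, B or D. Bdf1 at ATG23 was lost without Bdf1 array B, C or D. Across the 38 regions the TBP and TAF1 changes had a Pearson correlation of 0.78, TAF1 and Bdf1 of 0.79, and Spt3 and TAF1 of -0.22. Those for other promoters (n = 3912) were 0.73, 0.62 and 0.27. These are descriptions across regions that share arrays. The Spt3 value at ATG8, described below, weighs on the ATG correlation of Spt3 and TAF1. By Spearman that correlation was 0.24, and 0.35 over other promoters.

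**Figure D3:**
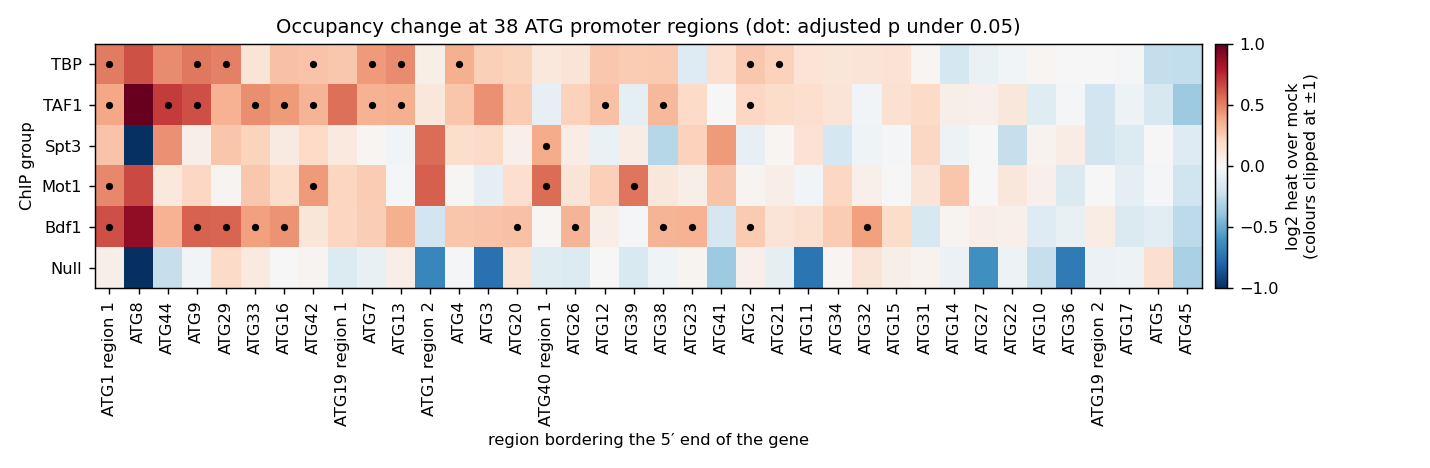
Fitted log2 occupancy change, heat over mock, at each of the 38 ATG promoter regions (columns, in order of the mean over the 5 factors) for the 5 factors and Null (rows). Colours are clipped at 1 log2 unit, and dots mark an adjusted p under 0.05: 11 for TAF1, 11 for Bdf1, 9 for TBP, 4 for Mot1, 1 for Spt3 and 0 for Null.

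ATG1 region 1, one of a pair of regions 5′ of the kinase gene, was called for 4 of the 5 factors. Bdf1 read 0.26, 0.69, 0.95 and 0.64 on arrays A to D, and TBP read 0.58, 0.80, 0.19 and 0.51. Null read 0.35, 0.05, -0.11 and -0.07, so that Null array A overlapped the lowest arrays of both. The fitted changes were 0.64 ± 0.11 for Bdf1 (n = 4, limma adjusted p = 0.000344), 0.52 ± 0.11 for TBP (0.00202), 0.48 ± 0.11 for Mot1 (0.00426) and 0.39 ± 0.11 for TAF1 (0.0117). All 4 Spt3 arrays were also above 0, from 0.21 to 0.37, but the fitted 0.29 was not called. The TAF1 call was lost without array A (0.28, adjusted p = 0.141) and without array B (0.36, adjusted p = 0.0574). ATG1 region 2 had no factor call, with TBP at 0.06 and TAF1 at 0.11.

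ATG9 was called for TBP, TAF1 and Bdf1. TAF1 read 0.96, 0.94, 0.30 and 0.38 on arrays A to D, and Bdf1 read 0.61, 0.75, 0.78 and 0.47. Null read -0.15, 0.08, -0.44 and 0.39, so Bdf1 did not overlap Null, while 2 TAF1 arrays lay below the highest Null array. With the channel effect taken out, TAF1 array C (0.422) lay above the highest Null array, D (0.268), and TAF1 array D (0.263) just below it. The fitted values were 0.65 ± 0.15 for TAF1 (n = 4, limma adjusted p = 0.00296), 0.59 ± 0.15 for Bdf1 (0.00858) and 0.53 ± 0.15 for TBP (0.0184). The TAF1 call was lost without array A (adjusted p = 0.0531), the Bdf1 call without C (0.115) and the TBP call without B, C or D (0.0524 to 0.107). The upstream gene that ends at this region, RPC53, encodes a subunit of RNA polymerase III, and its RNA fell by 1.24 while that of ATG9 rose by 0.81.

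ATG7 was the most even of the TBP calls. TBP read 0.37, 0.46, 0.41 and 0.46 on arrays A to D, TAF1 read 0.58, 0.21, 0.30 and 0.31, and Null read 0.04, -0.08, -0.18 and -0.07. Neither factor overlapped Null. The fitted change was 0.43 ± 0.09 for TBP (n = 4, limma adjusted p = 0.00314) and 0.35 ± 0.09 for TAF1 (0.00884), the latter lost without TAF1 array A (adjusted p = 0.108). The upstream neighbour NMD3, an export adaptor of the large ribosomal subunit, fell by 3.07 in RNA.

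At ATG42, the member with the highest RNA change, Mot1 was called together with TBP and TAF1. Mot1 read 0.20, 0.39, 0.55 and 0.48 on arrays A to D, TAF1 read 0.29, 0.59, 0.33 and 0.16, and TBP read 0.39, 0.35, 0.12 and 0.29. Null read -0.17, 0.56, -0.15 and -0.12, so that Null array B lay above all but 1 of these factor arrays and the other 3 lay below all of them. With the channel effect taken out, Null array B (0.51) lay below Mot1 array C (0.60) and TAF1 array B (0.54). The fitted changes were 0.43 ± 0.09 for Mot1 (n = 4, limma adjusted p = 0.00270), 0.34 ± 0.09 for TAF1 (0.00914) and 0.29 ± 0.09 for TBP (0.0367). The TBP call was lost without array A, B or D (adjusted p = 0.0944 to 0.214) and the TAF1 call without array B (0.27, adjusted p = 0.0808). The region also borders the 5′ end of YBR138C, whose RNA was at -0.08 ± 0.15.

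Both genes for ER-phagy receptors, ATG39 and ATG40, were called for Mot1. At ATG40 region 1, Mot1 read 0.37, 0.70, 0.57 and 0.55 on arrays A to D and Spt3 read 0.49, 0.29, 0.30 and 0.39 on arrays B to E. TAF1 read -0.23, -0.12, -0.07 and 0.10, and Null read 0.10, -0.45, -0.19 and 0.04. Mot1 and Spt3 lay above every TAF1 and Null array. The fitted change was 0.56 ± 0.09 for Mot1 (n = 4, limma adjusted p = 0.000181), and for Spt3 it was 0.37 ± 0.09 (0.0165), which was lost without Spt3 array B, C or E. At ATG39, with the channel effect left in, Mot1 read 0.08, 1.01, 0.79 and 0.41, all above the Null arrays (-0.39, -0.22, 0.04 and -0.02). That effect, fitted at 0.08 here, enters Mot1 array A and Null array D with opposite signs. With it taken out, Mot1 array A lay below Null array D. The Mot1 fit was 0.53 ± 0.11 (n = 4, limma adjusted p = 0.00265). TAF1 at ATG39 was at -0.10 and Bdf1 at -0.01. The ATG40 region also borders the 5′ end of the drug pump gene PDR5, whose RNA was at 0.44 ± 0.23 and was not called, and that of ATG39 borders MRPL15, a mitochondrial ribosomal protein gene with no tested RNA value.

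The mitophagy genes had calls at the promoter and none in RNA. At ATG32, Bdf1 read 0.26, 0.31, 0.52 and 0.27 on arrays A to D and the fit gave 0.41 ± 0.08 (n = 4, limma adjusted p = 0.00184). The Null arrays read 0.59, -0.03, 0.10 and -0.13, so that Null array A lay above every Bdf1 array. With the channel effect taken out, Null array A (0.443) lay just below Bdf1 array B (0.453) and above the other Bdf1 arrays. At ATG33, TAF1 read 0.56, 0.65, 0.50 and 0.14 and Bdf1 read -0.0039, 0.37, 0.61 and 0.47, against 0.21, -0.02, 0.10 and 0.09 for Null. With the channel effect, fitted at 0.10 here, left in, 3 arrays of each factor lay above all Null arrays and 1 did not. That effect enters TAF1 array D (0.14) and Null array A (0.21) with opposite signs, so their order is not free of it. The fits gave 0.46 ± 0.10 for TAF1 (n = 4, limma adjusted p = 0.00193) and 0.41 ± 0.10 for Bdf1 (0.00675). The Bdf1 call was lost without Bdf1 array C (adjusted p = 0.0671). The ATG33 region also borders the 5′ end of ILV5, an enzyme gene of branched-chain amino acid synthesis, whose RNA fell by 1.03.

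**Figure D4:**
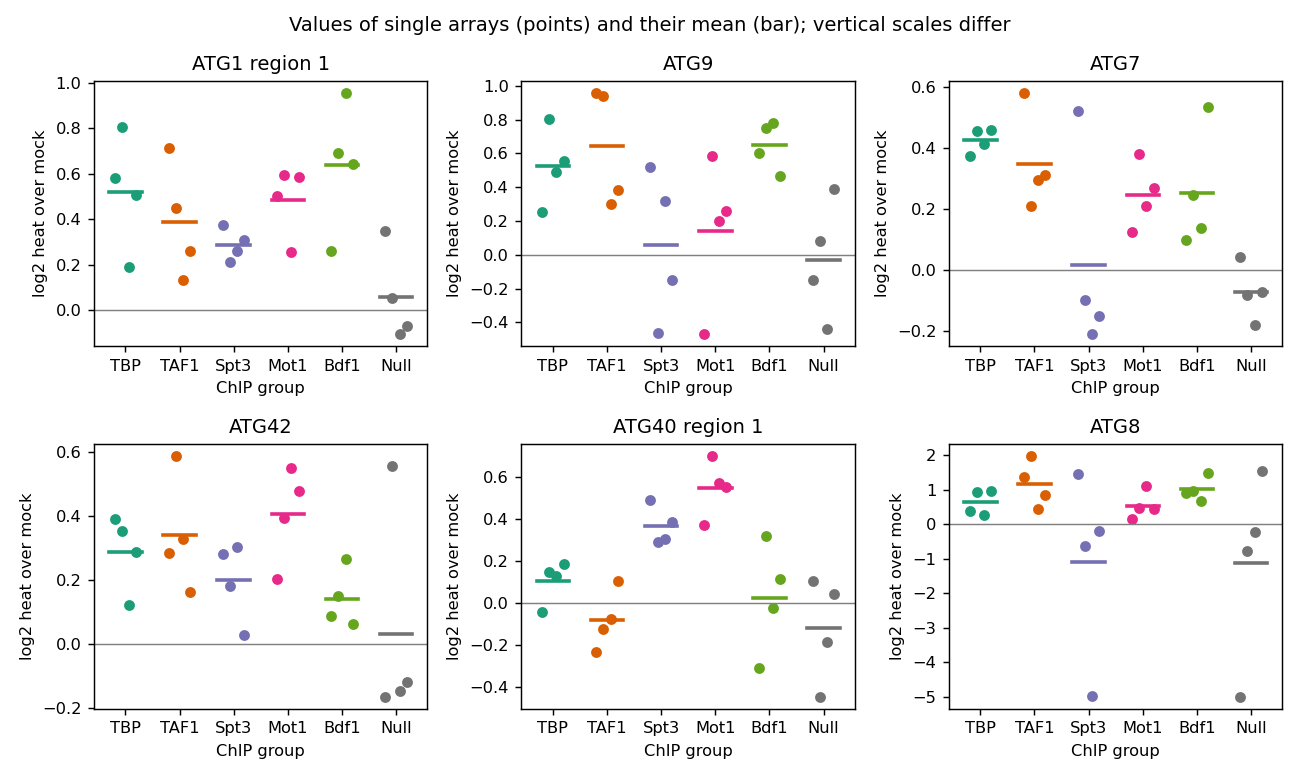
Log2 heat over mock (vertical axis, relative to the array median) on each of the 4 arrays (points) of the 5 factors and Null, with their mean (bar), at 6 ATG promoter regions. At ATG8, Null A and Spt3 D lie near -5, and the vertical scales of the panels differ.

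ATG8, whose RNA rose 3.20-fold, had no factor call at its promoter, and 2 arrays set its error. TAF1 read 1.38, 1.99, 0.45 and 0.85 on arrays A to D and Bdf1 read 0.90, 0.97, 0.67 and 1.49. All 4 TBP arrays (0.27 to 0.97) and all 4 Mot1 arrays (0.15 to 1.10) were above 0 too. Null read -5.00, -0.78, -0.23 and 1.54, and Spt3 read 1.45, -0.64, -4.98 and -0.18 on arrays B to E. The SE was therefore 0.72, and the fitted 1.17 for TAF1 (adjusted p = 0.278) and 0.89 for Bdf1 (0.453) were not called. When values more than 4 log2 units from the array median were left out, a setting chosen after the data were seen, the SE for TAF1 was 0.27 and the change 1.17 (n = 4, limma adjusted p = 0.00446). That for Bdf1 was 0.87 (0.0365), TBP at 0.64 (0.142) and Mot1 at 0.68 (0.123) were not called, and no factor was called against Null.

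Among the other genes with high RNA, ATG10 (TBP 0.02, TAF1 -0.12, Bdf1 -0.13), ATG34 (0.12, 0.13, 0.25), ATG36 (0.01, -0.02, -0.07) and ATG15 (0.14, 0.15, 0.18) had no factor called. ATG19 had no call either, with TAF1 at 0.55 in region 1 (adjusted p = 0.0556). ATG2 was called for TBP at 0.27, TAF1 at 0.21 and Bdf1 at 0.27. Its TBP call was lost without TBP array B or D, its TAF1 call whichever TAF1 array was left out, and its Bdf1 call without Bdf1 array C. Of the 18 genes whose RNA rose, 8 had no factor call at any region. Of the 20 genes with a factor call, 19 had an RNA value, and 10 of those rose, a share near the 18 of 36 among all measured ATG genes. TBP was called higher at 8 of 20 regions of the genes whose RNA rose and at 1 of 17 regions of those whose RNA was not called. For TAF1 these counts were 6 of 20 and 4 of 17, and for Bdf1 5 of 20 and 6 of 17. Other promoters were not split in this way, so these counts show nothing particular to ATG genes. TBP followed RNA over other promoters too (Pearson correlation 0.42, n = 5105).

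Across the 37 pairs of an ATG gene's RNA and its region, the Pearson correlation with RNA was 0.21 for TBP, 0.17 for TAF1, 0.11 for Mot1, 0.07 for Bdf1 and -0.28 for Spt3. Over 5105 other pairs it was 0.42, 0.37, 0.30, 0.25 and 0.12. By Spearman the ATG values were 0.23 for TBP, 0.11 for TAF1, -0.02 for Mot1, 0.03 for Bdf1 and -0.11 for Spt3, whose Pearson value includes the array near -5 at ATG8. The Spearman values of the other pairs were 0.41, 0.38, 0.27, 0.31 and 0.11 in the same order. These are correlations across genes, which share arrays and are not independent replicates, and those of other promoters helped to set the ChIP direction. The difference between the sets was not tested.

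**Figure D5:**
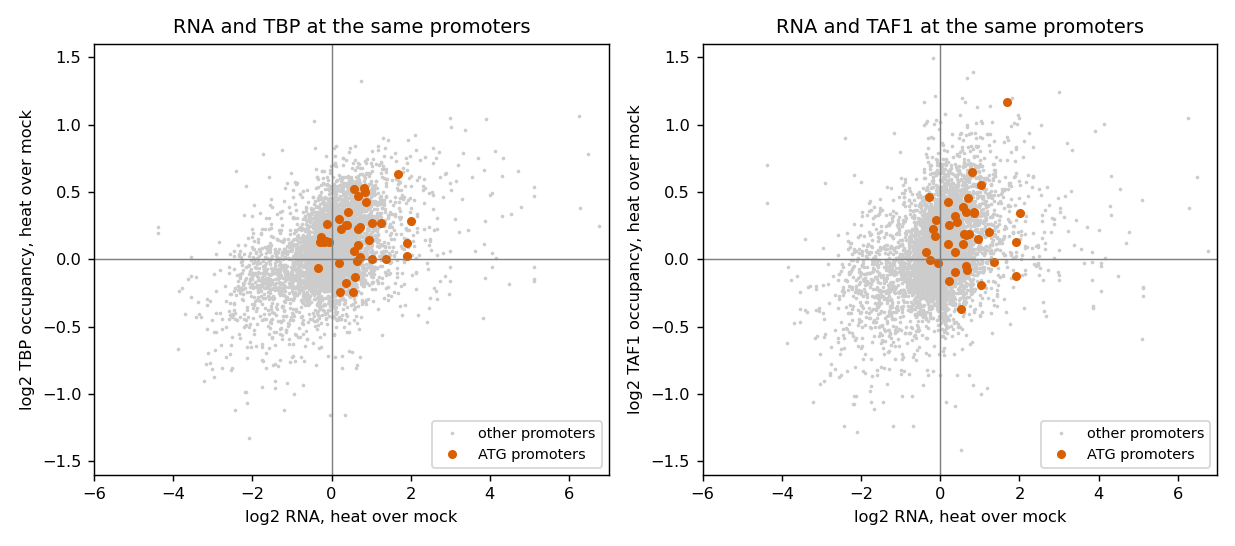
Log2 RNA change (horizontal axis) against log2 occupancy change of TBP (left) and TAF1 (right) for the region 5′ of the same gene, heat over mock. The ATG promoters (large points, 37 pairs) have Pearson correlations of 0.21 and 0.17 and the other promoters (small points) 0.42 and 0.37; 8 pairs lie outside the axes.

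Of the 36 genes with a region, 19 were taken to share it with a coding gene that is transcribed away from it on the other side. For these the files cannot say which promoter a change belongs to. At ATG31, a tRNA gene lies before the coding neighbour SES1, so its region may border the tRNA gene instead. SES1, whose RNA fell by 1.37, is counted as its neighbour below. TBP was called at 3 of 19 divergent regions and at 6 of 19 tandem regions, where the ATG gene is the one gene with its 5′ end there. TAF1 was called at 5 and 6 of these, and Bdf1 at 6 and 5. Other promoter regions, both classes together, were called higher in 12.2% for TBP, 17.1% for TAF1 and 11.2% for Bdf1. They were not split by class, so these counts cannot tell whether the classes differ at ATG genes in particular. Of 18 divergent neighbours with RNA values, 3 rose and 6 fell, where 18.2% of all probes were higher and 18.9% lower. The 3 that rose were SED4 beside ATG15 at 0.87, COA1 beside ATG44 at 0.78 and CVM1 beside ATG16 at 0.76. TAF1 was called at the regions of ATG44, which has no RNA value, and ATG16, whose RNA was not called. Bdf1 was also called at that of ATG16. Both ATG16 calls lay near the threshold (limma adjusted p = 0.0473 for TAF1 and 0.0482 for Bdf1). Each was lost whichever array of its factor was left out. TRM3 beside ATG20 fell by 2.01, RPL17B beside ATG27 fell by 1.84 and IMD3 beside ATG23 fell by 1.75. Of these 3 ATG genes, ATG23 itself rose in RNA by 0.60. Bdf1 was called at the ATG23 region at 0.35 and at the ATG20 region at 0.29. The gene upstream of ATG13 on the same strand, GDB1 (glycogen debranching enzyme), rose by 4.54, while ATG13 rose by 0.66.

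Set against the Null strain, there were fewer calls. The factor exceeded Null at 3 ATG regions for TBP (4.87% of all regions), 4 for TAF1 (7.42%), 3 for Mot1 (5.02%), 2 for Bdf1 (4.74%) and 0 for Spt3 (0.767%), the last with 6 at unadjusted p under 0.05 in limma's fit. In percent of the ATG regions these are 7.89, 10.5, 7.89, 5.26 and 0. Over the 3912 other promoter regions the shares were 7.11% for TBP, 10.5% for TAF1, 6.57% for Mot1, 6.44% for Bdf1 and 1.15% for Spt3. The ATG shares against Null lie near these. For TBP the 3 were ATG7 at 0.50 ± 0.13 (n = 4 against 4, limma adjusted p = 0.0197), ATG3 at 0.98 and ATG21 at 0.33. For TAF1 the 4 were ATG3 at 1.20, ATG44 at 0.92, ATG9 at 0.68 and ATG7 at 0.42. ATG40 region 1 and ATG39 had the lowest adjusted p for Mot1, at 0.68 ± 0.12 (limma adjusted p = 0.00198) and 0.68 ± 0.16 (0.0105), and ATG1 region 1 for Bdf1, at 0.59 ± 0.15 (0.0189). With 1 array left out at a time, these counts ranged from 0 (without TBP B or D) to 5 (without Null A) for TBP and from 1 (without TAF1 A; 2 without B) to 6 (without Null D) for TAF1. They ranged from 1 (without Null A) to 4 for Mot1, where Mot1 B, C or D left out gave 2. For Bdf1 they ran from 0 (without Bdf1 C; 1 without Bdf1 A, Bdf1 D or Null B) to 5 (without Null D; 4 without Null A), and for Spt3 from 0 to 4 (without Null D; 3 without C and 1 without A).

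Some of these contrasts rest on Null array A. At ATG3 the Null arrays read -2.25, -0.63, -0.31 and 0.20, and TAF1 read 0.42, 0.98, 0.09 and 0.33. No factor was called at ATG3 on its own. Without Null A the TBP contrast went from 0.98 to 0.52 and was no longer called (limma adjusted p = 0.109). At ATG1 region 2, Null A read -2.65 against -0.17 to 0.22 on the other arrays, and the Mot1 contrast went from 1.25 to 0.55 without it (limma adjusted p = 0.105). At ATG44, Null A read -1.19, and the TAF1 contrast went from 0.92 to 0.65 (0.0998). At ATG39 the Mot1 contrast went from 0.68 to 0.56 (0.0513), and that at ATG40 region 1 was called with or without it.

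Spt3 and TAF1 stand for the SAGA and TFIID complexes, and their responses differed at 2 of 38 regions. At 1 region each way, this is 2.63% of the ATG regions. Other promoter regions had 2.89% with Spt3 above TAF1 and 2.61% below, so the ATG shares lie near the background. Spt3 exceeded TAF1 at 1 (2.07% of all regions), ATG40 region 1, by 0.45 ± 0.12 (n = 4 against 4, limma adjusted p = 0.0408). It was below TAF1 at 1 (1.99% of all), ATG38, with a difference of -0.61 ± 0.13 (limma adjusted p = 0.0102). At ATG38, a subunit gene of phosphatidylinositol 3-kinase complex I, TAF1 read 0.20, 0.37, 0.36 and 0.37 and Spt3 read -0.91, -0.04, -0.13 and -0.08. The groups did not overlap. The count of 2 became 1 when Spt3 array C, D or E, or TAF1 array A, B or C, was left out. The call at ATG40 region 1 was lost whichever Spt3 array was left out (limma adjusted p = 0.0579 to 0.101). It was also lost without TAF1 array A, B or C (0.0606 to 0.136). The call at ATG38 was kept whichever Spt3 or TAF1 array was left out.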

How the data were processed

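The authors deposited 1 log2 ratio per spot and array, not centred. Per the labels, images came from a GenePix 4000A instrument and were quantified in GenePix Pro 4.0. How background, normalization and weak spots were handled is not given in those sources. Groups and channels came from the labels.

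Each array was turned to heat over mock and centred on its median. limma 3.58.1 (R 4.3.3; lmFit, eBayes) was fitted to all 28 ChIP arrays, with 1 heat coefficient per strain and a channel effect per region, and to the 4 RNA arrays likewise. Regions needed 3 arrays in every group, and probes 3 arrays including both heat arrays. P-values were adjusted (Benjamini-Hochberg) over all 6392 regions or 6772 probes, and values under 0.05 were called. The method was tested on simulated data. Gene names came from the platform annotation and RefSeq (R64). Sides of genes came from gene order and systematic names, and regions were taken to lie to the right of the gene that names them: with the gene on the other side, the correlations that set the ChIP direction were -0.04 to 0.08. No coordinates are given, since the array build is not known.

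Values on every array are given for the 8 genes with the lowest adjusted p in RNA and the 8 at a promoter, and for others where an array sets a result. ATG3, ATG8, ATG38 and ATG40 RNA were added after their values were seen. Members and lists were chosen with earlier results of these data known. Alternatives covered centring, scaling, the channel effect, array weights, missing values, a replicate block and single arrays.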

Additional observations from a re-analysis of the deposited data

Results flagged for a closer look

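The responses of a factor and of Null, or of Spt3 and TAF1, differed by limma's test of the difference (adjusted p under 0.05, n = 4 against 4) in 14 cases at ATG regions. Above Null were TBP at ATG3 (0.98), ATG7 (0.50) and ATG21 (0.33), and TAF1 at ATG3 (1.20), ATG44 (0.92), ATG9 (0.68) and ATG7 (0.42). Mot1 was above Null at ATG1 region 2 (1.25), ATG39 (0.68) and ATG40 region 1 (0.68), and Bdf1 at ATG3 (1.03) and ATG1 region 1 (0.59). Spt3 was above TAF1 at ATG40 region 1 (0.45) and below it at ATG38 (-0.61). With both noisier Null arrays, A and B, left out, a setting chosen after the data were seen, 2 of these 12 contrasts with Null were still called, Mot1 at ATG40 region 1 (0.64, adjusted p = 0.0145) and Bdf1 at ATG1 region 1 (0.72, adjusted p = 0.0295). All 3 for TBP, all 4 for TAF1, Mot1 at ATG39 (0.184) and ATG1 region 2 (0.372) and Bdf1 at ATG3 (0.356) had adjusted p above 0.05. ATG42, not called with all arrays, was then above Null for TAF1 (0.47, adjusted p = 0.0256) and Mot1 (0.55, adjusted p = 0.0164).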

How the results depend on the processing

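Of 68 gene or region calls, 14 kept their call under every alternative run except the absence of centring and the reading of values as already turned. They were the RNA rises of ATG10, ATG34, ATG36 and ATG42, Mot1 at ATG39, ATG40 region 1 (also against Null) and ATG42, TBP at ATG1 region 1 and ATG7, Bdf1 at ATG1 region 1 and ATG32, TAF1 at ATG33, and Spt3 minus TAF1 at ATG38. The RNA count of 18 was 4 with arrays scaled to equal spread and 8 from heat arrays alone, and 6 to 19 with 1 array left out. Equal spread gave 6 for TAF1 and 4 for Spt3. Array weights gave 19 for TBP (16 higher, 3 lower), 5 for Spt3, 6 for Spt3 minus TAF1, and against Null 12 for TBP, 7 for Bdf1, 5 for Mot1 and 2 for Spt3. The cause of these shifts was not tested.

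Without centring, TBP, TAF1, Spt3 and Bdf1 had 0 calls, Mot1 33 lower and Null 38 lower, and against Null TBP had 35, TAF1, Mot1 and Bdf1 0. Mot1 was then -0.73 at ATG42, -0.68 at ATG1 region 1, -0.62 at ATG39 and -0.60 at ATG40 region 1. Read as already turned, all 5 factors had 0 calls. TBP was then -0.0324 at ATG42, -0.0328 at ATG7, -0.15 at ATG9, -0.14 at ATG1 region 1, -0.0533 at ATG2, -0.0193 at ATG4 and -0.0246 at ATG29. TAF1 was -0.0344 at ATG42, -0.0783 at ATG12, -0.0162 at ATG9, -0.0451 at ATG38 and -0.0916 at ATG13, and Spt3 -0.0290 at ATG40 region 1. Bdf1 was -0.13 at ATG9, -0.14 at ATG20, -0.0375 at ATG32, -0.0812 at ATG26, -0.10 at ATG38, -0.0120 at ATG23, -0.11 at ATG16, -0.0294 at ATG2 and -0.20 at ATG29.

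With 1 array left out, counts ran from 3 to 9 for Bdf1, 4 to 8 for TAF1, 2 to 8 for TBP, 4 to 5 for Mot1, 0 to 1 for Spt3 and 0 to 5 for Null. Against Null they ran from 1 to 6 for TAF1, 0 to 5 for TBP, 0 to 5 for Bdf1, 1 to 4 for Mot1 and 0 to 4 for Spt3. For Spt3 minus TAF1 they ran from 1 to 2. Without both noisier Null arrays they were 0 for TBP, 1 for TAF1, 2 for Mot1 and 1 for Bdf1. Of the 12 contrasts called with all arrays, 2 were among these, Mot1 at ATG40 region 1 and Bdf1 at ATG1 region 1. The replicate letters share only a name: deviations of same-letter arrays correlated between -0.29 and 0.27, over 0.1 in 6 of 55 pairs. With the replicate letter as a block the counts were 8 for RNA, 4 for TBP, 7 for TAF1, 1 for Bdf1 minus Null and 1 for Spt3 minus TAF1, and the other counts stayed within 1.5 times.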
